A study of Mus musculus with 24 samples.

Results

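The mitochondrial respiratory chain genes of mouse skin were taken by name from the gene counts of C3H/HeJ mice with alopecia areata (AA), a hair loss in which T cells attack the hair follicle. A gene was a member if its symbol began with Ndufa, Ndufb, Ndufc, Ndufs, Ndufv, Uqcr, Cox4, Cox5, Cox6, Cox7, Cox8 or Atp5, if it was Sdha, Sdhb, Sdhc or Sdhd, or if it was a protein-coding gene of the mitochondrial genome. The rule found 107 of the 27179 genes, of which 94 lie in nuclear DNA and 13 in mitochondrial DNA. After the filter on low counts, 91 nuclear and all 13 mitochondrial members were tested. The 3 nuclear members left out were Cox7b2, Cox8c and Uqcr11, which had counts near 0. The 91 comprised 36 subunits of complex I, 8 of its assembly factors (Ndufaf) and 4 subunits of complex II. Complex III had 7 and complex IV had 18 (with Ndufa4, Ndufa4l2 and Cox7a2l). The rest were 16 genes named for complex V and 2 pseudogenes, Atp5c1-ps and Uqcrh-ps1. The 16 include Atp5s, a coupling factor with the RefSeq symbol Dmac2l, which is not counted as a subunit here.

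The respiratory chain sits in the inner mitochondrial membrane. Complexes I and II take electrons from NADH and succinate, complex III passes them to cytochrome c and complex IV to oxygen, and complex V (ATP synthase) uses the resulting proton gradient to make ATP. Complex II is built from nuclear genes only, while the other complexes combine nuclear and mitochondrial subunits. Striated muscle, the heart and brown fat are rich in these complexes, and some complex IV subunits exist as a general form and as a form largely restricted to such tissues.

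The skin came from 7 groups of C3H/HeJ mice with AA. Mice had received a JAK1 inhibitor (JAK1i, INCB039110, 50 mg/kg), a JAK3 inhibitor (JAK3i, PF-06651600), ruxolitinib or tofacitinib, these last at 30 mg/kg each, a JAK2 inhibitor (JAK2i, CEP-33779, 50 mg/kg) or vehicle, with 3 libraries a group, and 6 pretreatment libraries were taken, 1 from each cohort. JAKs are the kinases that relay cytokine signals, and ruxolitinib and tofacitinib each act on several of them. The compounds and doses are those of the study's methods for systemic dosing, and the study describes the sequenced skin as systemically treated. The sample labels describe a topical 2% (w/w) preparation instead, and this conflict was not resolved here. The labels do not say that the libraries of a group came from separate mice, so p-values measure the spread between libraries, which may be technical. Fewer cells of a type and less RNA per cell cannot be told apart in whole skin.

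Each library held between 17311913 and 21858670 counts. Epidermal keratinocyte markers took 0.972% to 1.68% of them in JAK1i, 0.77% to 1.01% in JAK3i, 1.36% to 1.69% in ruxolitinib and 1.26% to 1.68% in tofacitinib skin, against 2.58% to 2.85% in vehicle skin. Of the 7 markers 5, 7, 4 and 4 fell and none rose in that order of groups, where 35.4%, 33.1%, 27.2% and 28.2% of all genes fell. The part of fewer keratinocyte transcripts in the changes of the members was not tested. JAK1i replicate 3 differed from JAK1i replicates 1 and 2: its nuclear members lay at a median of 0.25 above the vehicle mean on the log2 scale, against 1.37 and 1.14 in replicates 1 and 2, and its mitochondrial members at 0.74, against 1.99 and 1.90. Dermal fibroblast markers took 0.0521% and 0.0574% of counts in replicates 1 and 2, but 0.417% in replicate 3 and 0.315% to 0.468% in vehicle skin. Macrophage markers took 0.00835%, 0.00816% and 0.043% in replicates 1 to 3, against 0.0707% to 0.0818% in vehicle skin. Which JAK1i libraries are the unusual ones was not settled. A small second table of 7 genes carries the same 24 column names, and in 6 of its columns the values matched a library of another name, always JAK1i, JAK2i or JAK3i. These exchange JAK1i replicate 2 with JAK2i replicate 1, JAK1i replicate 3 with JAK3i replicate 1 and JAK2i replicate 3 with JAK3i replicate 2, so JAK1i replicates 2 and 3 are both among the 6. Which table carries the right names is not given in the sources used here, and comparisons of JAK1i, JAK2i and JAK3i skin rest on the names of the count table. The other 18 columns matched the library of their own name, and by those names all libraries are grouped here.

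The share of all counts that fell on respiratory chain genes was higher in JAK1i, JAK3i, ruxolitinib and tofacitinib skin than in vehicle skin in every library. Nuclear members took 1.6%, 1.5% and 0.892% of counts in the 3 JAK1i libraries, against 0.739% to 0.760% in vehicle skin. The mean shares were 1.1% ± 0.026 in JAK3i skin, 0.955% ± 0.0208 in ruxolitinib skin and 0.933% ± 0.0771 in tofacitinib skin, against 0.749% ± 0.0104 in vehicle skin (SD, n = 3 each). The JAK2i mean was 0.741% ± 0.0193 (SD, n = 3), and its libraries overlapped those of vehicle skin. Mitochondrial members took 6.73%, 6.46% and 3.78% of counts in JAK1i skin, against 2.07%, 2.19% and 2.17% in vehicle skin. Their means were 4.45% ± 0.276 in JAK3i, 3.52% ± 0.17 in ruxolitinib, 3.83% ± 0.144 in tofacitinib, 2.16% ± 0.155 in JAK2i and 2.14% ± 0.062 in vehicle skin (SD, n = 3 each). Mitochondrial counts were larger relative to nuclear counts in these groups: they were 4.19 to 4.31 times the nuclear counts in JAK1i, 3.88 to 4.30 times in JAK3i, 3.60 to 3.79 times in ruxolitinib and 3.89 to 4.44 times in tofacitinib skin, against 2.73 to 2.94 times in vehicle skin, and did not overlap it. These shares are a description and were given no test.

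**Figure D1:**
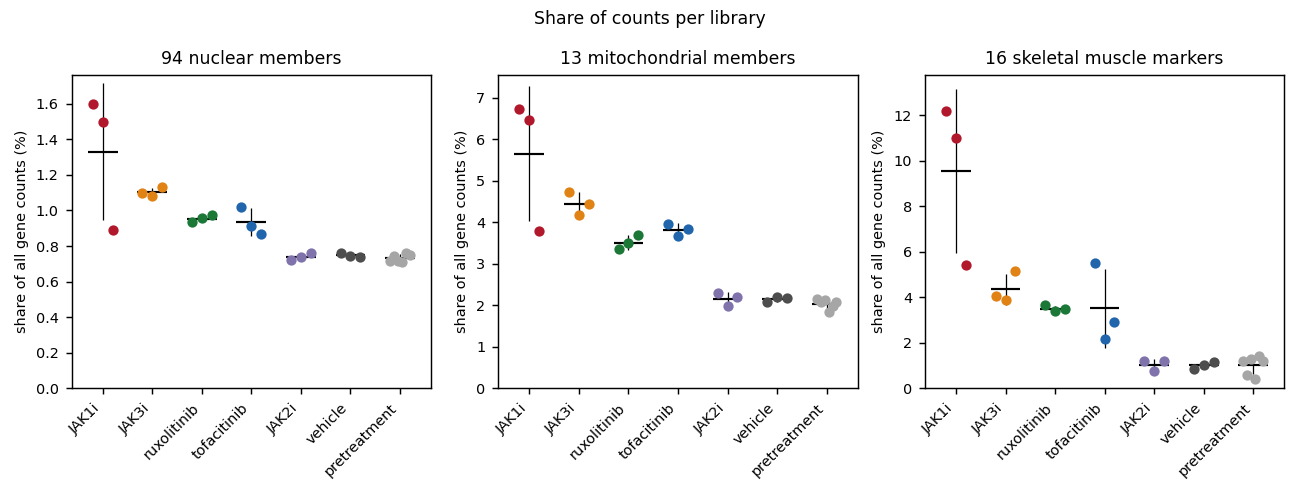
Percent of all counts on nuclear members (left), mitochondrial members (middle) and 16 skeletal muscle markers (right) by group; points are libraries, lines means and bars SDs (n = 3, pretreatment 6). JAK1i, JAK3i, ruxolitinib and tofacitinib libraries lie above the vehicle libraries in each panel, and JAK1i replicate 3 lies below the other JAK1i libraries.

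Skeletal muscle transcripts were also higher in JAK1i, JAK3i, ruxolitinib and tofacitinib skin, but the order of single libraries was not always that of the members. The 16 skeletal muscle markers, among them Acta1 (muscle actin) and Ckm (muscle creatine kinase), took 12.2%, 11% and 5.43% of counts in JAK1i skin, against 0.867% to 1.16% in vehicle skin. Their share was 3.9% to 5.15% in JAK3i, 3.40% to 3.65% in ruxolitinib, 2.19% to 5.49% in tofacitinib and 0.768% to 1.19% in JAK2i skin. Tofacitinib replicate 2 had 2.19% on these markers and 3.67% on mitochondrial members, against 3.65% and 3.35% in ruxolitinib replicate 1. None of the 16 fell, and 16 rose in JAK1i, 15 in JAK3i, 14 in ruxolitinib and 14 in tofacitinib skin, with median log2 fold changes of 3.53, 2.11, 1.89 and 1.94 in that order of groups. A list of 10 slow or oxidative muscle fibre markers was less uniform: 5, 9, 3 and 5 rose and 1, 1, 2 and 1 fell, with medians of 2.57, 3.27, -0.71 and 1.34. These markers took 0.199% to 0.547%, 0.219% to 0.453%, 0.148% to 0.163% and 0.0771% to 0.185% of counts in that order. Vehicle skin had 0.0773% to 0.0794%, and only tofacitinib skin overlapped it. White adipocyte markers rose too, 11 of 12 in each of JAK1i, JAK3i and ruxolitinib skin and 12 in tofacitinib skin, and they took 0.289% to 0.408%, 0.825% to 1.00%, 0.501% to 0.553% and 0.462% to 0.983% of counts in that order, against 0.116% to 0.137% in vehicle skin. JAK1i skin had the lowest white adipocyte mean of these groups and the highest skeletal muscle mean. Brown adipocyte markers took 0.00768% to 0.0106% of counts in JAK1i, 0.0106% to 0.0134% in JAK3i, 0.0133% to 0.0162% in ruxolitinib and 0.016% to 0.0204% in tofacitinib skin, against 0.00814% to 0.00944% in vehicle skin, with no overlap in the last 3 groups. Of 6 tested brown adipocyte markers 3, 2, 3 and 4 rose and 2, 0, 0 and 0 fell in that order, and Ucp1, the brown fat uncoupling protein, had too few counts to be tested. As background for these marker counts, 28.8%, 31.7%, 23.6% and 24.8% of all genes rose in that order. The share of brown adipocyte markers that rose in JAK3i skin was near this background. The part of muscle or fat RNA in the changes of the members was not tested.

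**Figure D2:**
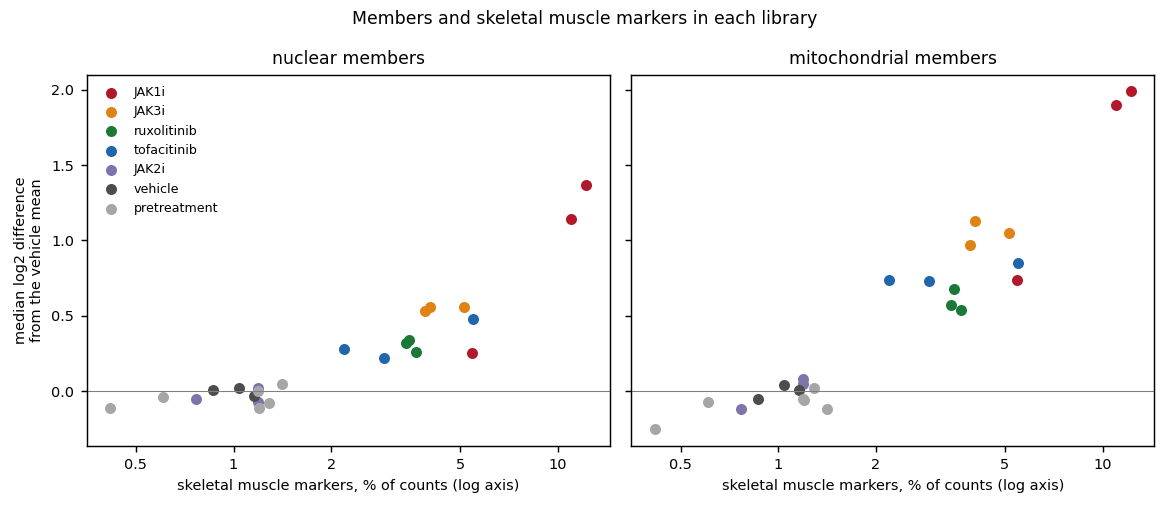
Median log2 difference of the nuclear and mitochondrial members from the vehicle mean (y) against the percent of counts on 16 skeletal muscle markers (x, log axis), 1 point per library and set. JAK1i replicates 1 and 2 lie farthest up and to the right, and the vehicle, JAK2i and pretreatment libraries lie together at the lower left.

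Nuclear members were compared with vehicle skin in each inhibitor group by edgeR's quasi-likelihood test, and a gene was called at an adjusted p below 0.05 over all 17770 genes tested. In JAK1i skin 82 of the 91 nuclear members rose and 3 fell, where 28.8% of all genes rose and 35.4% fell. The median log2 fold change was 1.01 for these members and -0.06 for all genes. In JAK3i skin 66 rose and 1 fell, where 31.7% of all genes rose and 33.1% fell, with a median of 0.55 for the members and 0.02 for all genes. In ruxolitinib skin 26 rose and 1 fell, where 23.6% of all genes rose and 27.2% fell, so the share of members that rose was close to the background. In tofacitinib skin 28 rose and 1 fell, where 24.8% of all genes rose and 28.2% fell. The medians were 0.30 and 0.33 for the members in ruxolitinib and tofacitinib skin, against -0.00 and -0.01 for all genes. Every library of the inhibitor group lay above every vehicle library for 63 nuclear members in JAK1i skin (27.6% of all genes), 82 in JAK3i skin (36.0%), 69 in ruxolitinib skin (33.1%) and 65 in tofacitinib skin (31.0%).

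All 13 mitochondrial members rose in each of these 4 groups, and each inhibitor library lay above each vehicle library. Their median log2 fold changes were 1.67 in JAK1i, 1.07 in JAK3i, 0.59 in ruxolitinib and 0.76 in tofacitinib skin. The 4 comparisons share the vehicle libraries and are therefore not independent. The nuclear counts in ruxolitinib and tofacitinib skin rest on single libraries. Without JAK1i replicate 3, 64 nuclear members rose in ruxolitinib skin and 61 in tofacitinib skin, with the same medians of 0.30 and 0.33, where 27.3% and 28.4% of all genes rose. In the same refit 84 rose in JAK1i skin (median 1.28) and 80 in JAK3i skin (median 0.55). Of all genes 29.6% and 34.0% rose there. In ruxolitinib skin 16 rose without ruxolitinib replicate 2 or without any 1 of the vehicle libraries, and 15 without ruxolitinib replicate 3. In tofacitinib skin 17 rose without vehicle replicate 3 and 9 without tofacitinib replicate 1, the tofacitinib library with most muscle counts. The part of muscle RNA in this drop was not tested. The share of all genes that rose is not given for the refits without a ruxolitinib, vehicle or tofacitinib library.

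**Figure D3:**
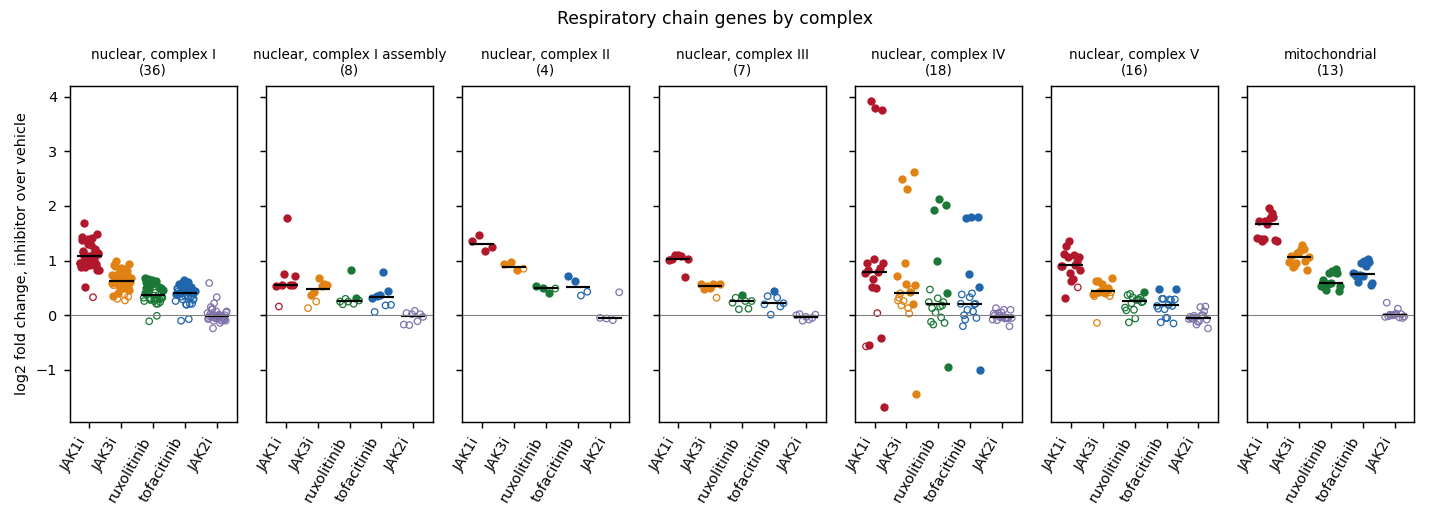
Log2 fold change from vehicle skin (y) of each tested member except the pseudogenes, by inhibitor (x). There is 1 panel per nuclear complex, 1 for the Ndufaf genes and 1 for the mitochondrial members. Filled points were called at an adjusted p below 0.05, open points were not, and lines are medians. JAK2i points lie around 0 and none is filled, while all 13 mitochondrial members are filled for each of the other inhibitors.

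Values of the mitochondrial members follow by gene. COX1, which encodes the catalytic subunit of complex IV, had 24676, 22799 and 12109 normalized CPM (read counts scaled to a common library size) in JAK1i skin, against 7192, 7861 and 7603 CPM in vehicle skin. It had 14864, 13042 and 13916 CPM in JAK3i, 10420, 10791 and 11386 CPM in ruxolitinib and 12555, 11965 and 12544 CPM in tofacitinib skin, so no inhibitor library overlapped the vehicle range. The log2 fold changes were 1.40 ± 0.19, 0.88 ± 0.18, 0.52 ± 0.18 and 0.71 ± 0.18 (SE) in that order, with edgeR adjusted p = 2.02e-06, 0.000296, 0.0212 and 0.00282. In JAK2i skin COX1 had 7984, 6863 and 7454 CPM, within or near the vehicle range, and the pretreatment libraries ran between 6694 and 7360 CPM with a median of 7204 CPM.

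The complex I subunits ND4 and ND2 were among the mitochondrial genes that changed most. ND4 had 7422, 6643 and 3552 CPM in JAK1i, 4034, 3369 and 3747 CPM in JAK3i, 2704, 2919 and 3015 CPM in ruxolitinib and 3441, 3027 and 3316 CPM in tofacitinib skin, against 1511, 1643 and 1649 CPM in vehicle skin. Even JAK1i replicate 3 was above every vehicle library. The log2 fold changes of ND4 were 1.88 ± 0.19, 1.22 ± 0.18, 0.85 ± 0.18 and 1.03 ± 0.18 (SE) in that order of groups. ND2 had log2 fold changes of 1.97 ± 0.20, 1.21 ± 0.20, 0.81 ± 0.20 and 0.99 ± 0.20 (SE). CYTB, the mitochondrial subunit of complex III, followed with 1.73, 1.14, 0.77 and 0.95, and ND3 and ND4L of complex I with 1.78, 1.29, 0.80 and 0.90 and with 1.80, 0.99, 0.78 and 0.97.

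Smaller changes were seen for ND5, with log2 fold changes of 1.38 in JAK1i, 0.82 in JAK3i, 0.45 in ruxolitinib and 0.56 in tofacitinib skin, and for COX2, with 1.35, 0.91, 0.46 and 0.60. Both were nevertheless called in all 4 groups. COX3 had 1.40, 0.96, 0.57 and 0.73, ND1 had 1.67, 1.16, 0.59 and 0.71, and ND6 had 1.36, 1.07, 0.54 and 0.59. ATP6 and ATP8, the mitochondrial subunits of complex V, had 1.41, 0.97, 0.53 and 0.78 and 1.73, 1.09, 0.64 and 0.76. With 1 library left out in turn, the number of mitochondrial members called in ruxolitinib skin lay between 9 and 13, and in the other 3 groups it stayed at 13. Mitochondrial genes overlap on the circular genome, by 43 bases for ATP8 and ATP6, 1 base for ATP6 and COX3, 7 bases for ND4L and ND4 and 14 bases for ND5 and ND6. ND5 and ND6 lie on opposite strands, and since the strand setting of the counting is not given in the sources used here, reads over their overlap cannot be told apart.

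**Figure D4:**
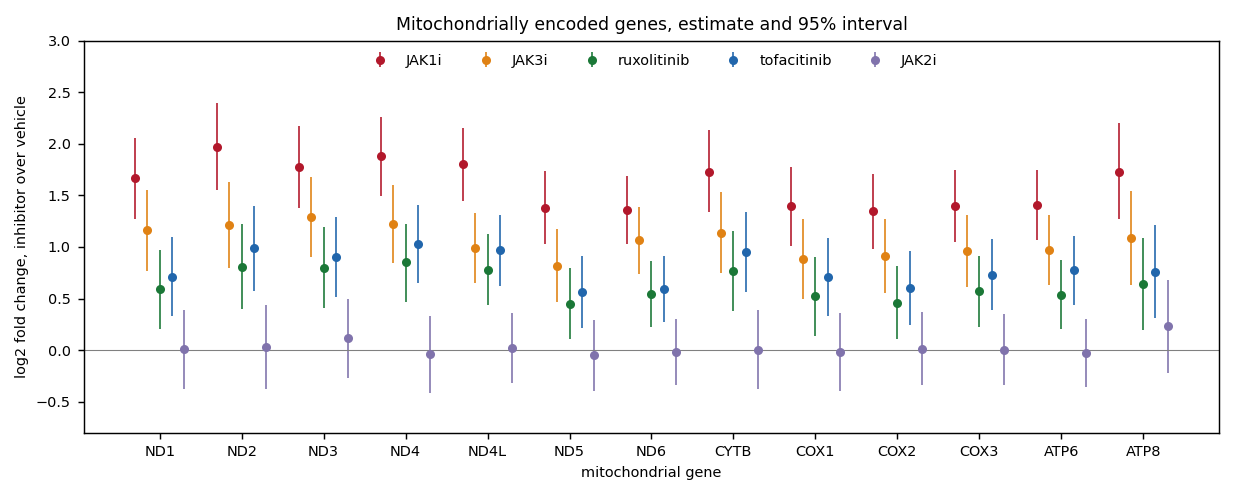
Log2 fold change from vehicle skin of the 13 mitochondrial members for each inhibitor; points are estimates and bars 95% intervals. The JAK1i, JAK3i, ruxolitinib and tofacitinib intervals lie above 0 for every gene, and every JAK2i interval crosses 0.

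The makeup of the mitochondrial set is given as the percent of its counts on each gene. ND4 made up 9.30%, 8.51%, 8.73% and 8.78% of mitochondrial counts in JAK1i, JAK3i, ruxolitinib and tofacitinib skin, against 7.35% in vehicle skin. ND2 made up 6.83%, 5.89%, 5.91% and 5.93%, against 5.10% in vehicle skin, and COX1 31.5%, 32.0%, 33.0% and 33.3%, against 34.7% in vehicle skin. These are means of 3 libraries each and were not tested.

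Complex I, the largest complex, had 35 of 36 nuclear subunits higher in JAK1i, 31 in JAK3i, 14 in ruxolitinib and 13 in tofacitinib skin, and none fell. Median log2 fold changes were 1.08, 0.63, 0.37 and 0.40 in that order. As background for this and the other complexes, 28.8%, 31.7%, 23.6% and 24.8% of all genes rose in that order. Ndufa5, an accessory subunit, moved most and had 149, 121 and 53.9 CPM in JAK1i, 69.9, 66.1 and 65.7 CPM in JAK3i, 52.0, 52.4 and 56.9 CPM in ruxolitinib and 62.7, 44.0 and 44.6 CPM in tofacitinib skin, against 33.6, 36.0 and 31.7 CPM in vehicle skin. No inhibitor library overlapped the vehicle libraries, and the log2 fold changes were 1.68 ± 0.22, 0.99 ± 0.22, 0.67 ± 0.22 and 0.58 ± 0.22 (SE). Ndufb9 rose by 1.41, 0.84, 0.62 and 0.60 and Ndufb2 by 1.39, 0.70, 0.65 and 0.65 on the log2 scale, both accessory subunits of the membrane arm. Ndufs4, a subunit whose loss causes complex I deficiency in mice, rose by 1.21, 0.81, 0.51 and 0.52 and Ndufv3 by 0.83, 0.68, 0.47 and 0.44. At the other end, Ndufc2 was called in none of the 4 groups, with log2 fold changes of 0.33, 0.27, -0.01 and -0.07, and Ndufa8 only in JAK1i skin (0.52 ± 0.20 SE, edgeR adjusted p = 0.0272, against 0.30, -0.11 and -0.10 elsewhere). Ndufa8 and Ndufc2 in JAK1i replicate 3 had 8.18 and 44.6 CPM, below the vehicle libraries.

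Of the Ndufaf genes, which take part in assembling complex I and are not subunits, 7 of 8 were higher in JAK1i, 6 in JAK3i, 2 in ruxolitinib and 5 in tofacitinib skin. The ruxolitinib share (25.0%) was near the background of 23.6%. Ndufaf5 had 39.3, 32.8 and 16.0 CPM in JAK1i, 14.3, 13.3 and 13.4 CPM in JAK3i, 13.4, 15.2 and 16.7 CPM in ruxolitinib and 19.8, 10.7 and 13.9 CPM in tofacitinib skin, against 9.01, 8.59 and 8.07 CPM in vehicle skin. Its groups did not overlap the vehicle libraries, and its log2 fold changes were 1.78 ± 0.25, 0.68 ± 0.25, 0.82 ± 0.24 and 0.79 ± 0.25 (SE). Ndufaf7 rose by 0.55, 0.57, 0.32 and 0.44 on the log2 scale. Ndufaf8 was called in JAK1i and JAK3i skin (0.71 and 0.56) and not in the other groups (0.27 and 0.19), whereas Ndufaf1 was called in JAK1i and tofacitinib skin (0.54 and 0.32), with 0.13 in JAK3i and 0.25 in ruxolitinib skin.

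Complex II (succinate dehydrogenase) links the chain to the tricarboxylic acid cycle. Sdha, the flavoprotein subunit, had 615, 559 and 321 CPM in JAK1i, 383, 342 and 382 CPM in JAK3i, 277, 277 and 291 CPM in ruxolitinib and 322, 340 and 287 CPM in tofacitinib skin, against 190, 197 and 194 CPM in vehicle skin. Every inhibitor library lay above the vehicle libraries, with log2 fold changes of 1.36 ± 0.14, 0.93 ± 0.14, 0.54 ± 0.14 and 0.71 ± 0.14 (SE). Sdhb, the iron-sulfur subunit, rose by 1.46, 0.97, 0.50 and 0.62. Sdhc, a membrane anchor, had 213, 188 and 108 CPM in JAK1i skin, against 77.2, 70.5 and 76.5 CPM in vehicle skin, and rose there with no overlap (edgeR adjusted p = 1.51e-06). It rose by 0.82 and 0.40 on the log2 scale in JAK3i and ruxolitinib skin and had 0.36 in tofacitinib skin, which was not called. The ruxolitinib calls of Sdhc and Sdhb were lost in 8 and 7 of 33 alternatives. The other anchor, Sdhd, had only 0.159 to 1.47 CPM in any inhibitor library, against 0.276 to 0.538 CPM in vehicle skin. It was called in JAK1i skin (1.25 ± 0.49 SE, edgeR adjusted p = 0.0305), but counting of genes with near-identical copies elsewhere in the genome is not described in the sources used here, so its level is uncertain.

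Complex III had 7 of 7 tested subunits higher in JAK1i skin and 6 in JAK3i skin, but only Uqcrc2 in ruxolitinib and tofacitinib skin. Uqcrc2, a core subunit, had 405, 368 and 207 CPM in JAK1i, 215, 205 and 229 CPM in JAK3i, 191, 193 and 206 CPM in ruxolitinib and 237, 192 and 195 CPM in tofacitinib skin, against 153, 151 and 155 CPM in vehicle skin. The groups did not overlap the vehicle libraries, and the log2 fold changes were 1.1 ± 0.15, 0.50 ± 0.15, 0.37 ± 0.15 and 0.45 ± 0.15 (SE). The ruxolitinib call of Uqcrc2 was lost in 20 of 33 alternatives, with fold changes between 0.33 and 0.41. Uqcrc1, its partner core subunit, rose by 1.1 and 0.53 in JAK1i and JAK3i skin and had 0.11 and 0.01 in ruxolitinib and tofacitinib skin. The iron-sulfur protein Uqcrfs1 rose by 1.09 and 0.57 in JAK1i and JAK3i skin and Uqcrb by 1.03 and 0.48, of which the JAK3i call of Uqcrb was lost in 7 of 33 alternatives. Uqcrh was called only in JAK1i skin (0.70), with 0.32, 0.12 and 0.16 in JAK3i, ruxolitinib and tofacitinib skin.

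Complex IV (cytochrome c oxidase) held the largest rises and also the members that fell. Of 18 tested members, 13 rose and 3 fell in JAK1i, 9 rose and 1 fell in JAK3i, and 5 rose and 1 fell in each of ruxolitinib and tofacitinib skin. The share that rose in ruxolitinib and in tofacitinib skin (27.8% each) was near the background of 23.6% and 24.8%. The 3 largest changes were those of Cox6a2, Cox7a1 and Cox8b, the forms of these subunits found mainly in striated muscle (Cox7a1 and Cox8b also in brown fat). Their counterparts Cox6a1, Cox7a2 and Cox8a are found in most tissues. Cox6a2 had 386, 327 and 91.5 CPM in JAK1i, 104, 82.5 and 115 CPM in JAK3i, 64.4, 68.1 and 68.8 CPM in ruxolitinib and 97.2, 37.97 and 47.7 CPM in tofacitinib skin, against 15.2, 19.2 and 18.9 CPM in vehicle skin. All of these libraries lay above the vehicle range, and JAK1i replicate 3 was within the range of JAK3i skin. The log2 fold changes of Cox6a2 were 3.92 ± 0.46, 2.50 ± 0.44, 1.92 ± 0.43 and 1.78 ± 0.43 (SE), with edgeR adjusted p = 4.7e-07, 4.96e-05, 0.000982 and 0.00165.

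Cox8b had 228, 177 and 53.3 CPM in JAK1i, 74.0, 66.9 and 69.0 CPM in JAK3i, 45.2, 44.8 and 47.1 CPM in ruxolitinib and 58.2, 31.2 and 28.6 CPM in tofacitinib skin, against 10.9, 11.4 and 11.5 CPM in vehicle skin. Its log2 fold changes were 3.76, 2.63, 2.02 and 1.80. Cox7a1 had 148, 117 and 33.2 CPM in JAK1i skin, against 6.48, 7.85 and 7.19 CPM in vehicle skin, and log2 fold changes of 3.79, 2.31, 2.13 and 1.80 in JAK1i, JAK3i, ruxolitinib and tofacitinib skin. The skeletal muscle markers had medians of 3.53, 2.11, 1.89 and 1.94 in the same groups. The part of muscle RNA in the changes of these 3 genes was not tested. Without these 3 genes, the share of nuclear members was 1.29% ± 0.36 in JAK1i, 1.08% ± 0.0239 in JAK3i, 0.939% ± 0.0203 in ruxolitinib and 0.921% ± 0.0718 in tofacitinib skin, against 0.745% ± 0.0106 in vehicle skin (SD, n = 3 each), so most of the added counts lay on other members. Muscle can hold those other members too, and the cells that the added counts came from were not tested.

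The general forms behaved differently. Cox6a1 had 99.5, 97.8 and 94.1 CPM in JAK1i skin, against 143, 142 and 138 CPM in vehicle skin, and fell by 0.54 on the log2 scale (SE 0.10, edgeR adjusted p = 6e-05) with no overlap. In JAK3i, ruxolitinib and tofacitinib skin its log2 fold changes were 0.18, -0.17 and -0.08, none called. Cox8a had 125, 126 and 108 CPM in JAK1i skin, against 162, 160 and 156 CPM in vehicle skin (log2 fold change -0.41), and 190, 184 and 176 CPM in JAK3i skin (0.20, edgeR adjusted p = 0.0303, not called with RLE scaling). Cox7a2 was called only in JAK1i skin, with a log2 fold change of 0.49, where 1 library lay below the vehicle libraries. Per kilobase of exon, Cox6a2 made up 69.2% ± 16.6 of the Cox6a pair in JAK1i, 39.3% ± 5.73 in JAK3i, 35.6% ± 0.647 in ruxolitinib and 31.6% ± 14.5 in tofacitinib skin, against 11.5% ± 1.4 in vehicle skin (SD, n = 3 each). Cox8b made up 64.1%, 39.6%, 35.1% and 30.2% of its pair, against 10.9% in vehicle skin, and Cox7a1 90.2%, 83.4%, 81.4% and 73.7%, against 52.8% in vehicle skin.

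**Figure D5:**
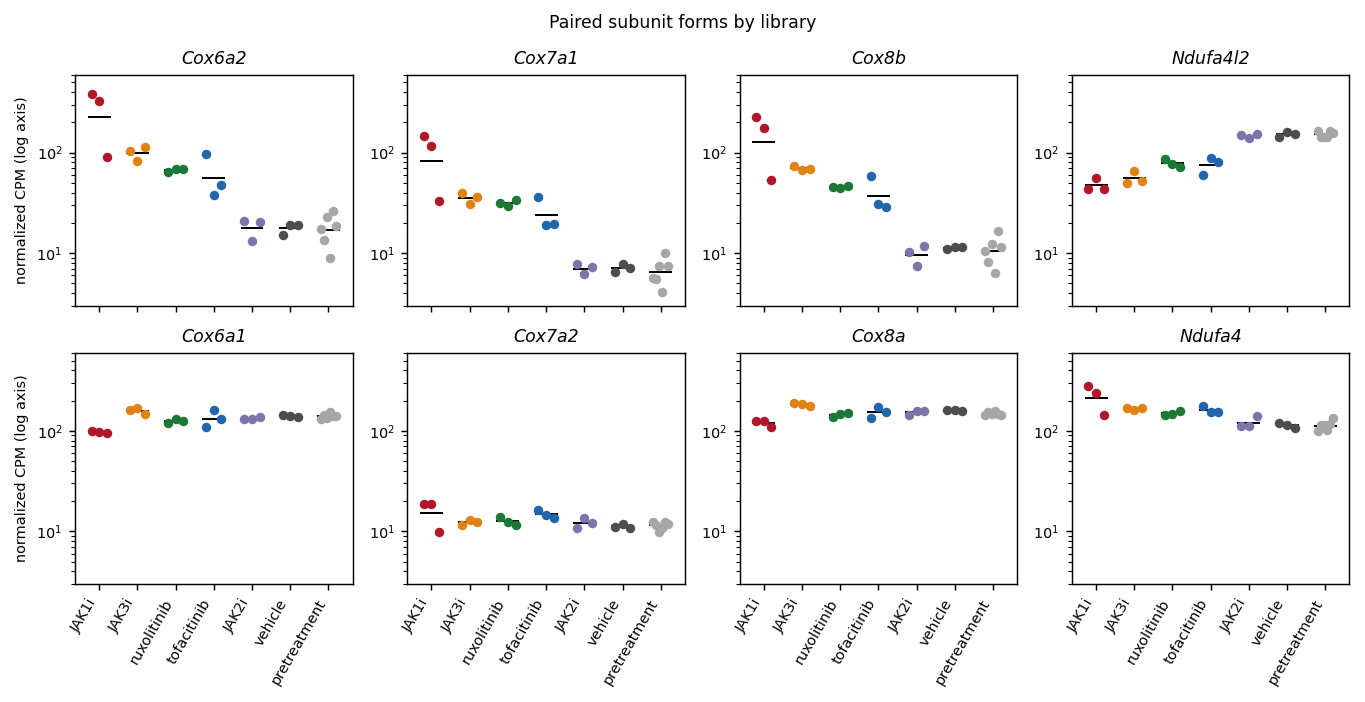
Normalized CPM (log axis) of tissue-restricted and general forms of 4 complex IV members in each library; lines are geometric means. Cox6a2, Cox7a1 and Cox8b lie above the vehicle level in JAK1i, JAK3i, ruxolitinib and tofacitinib skin, while Ndufa4l2 lies below it.

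The sequence just before the start of these genes is shown because the paired forms encode the same subunit yet changed by different amounts. Each run gives the 170 bases before the start in the RefSeq promoter records of mouse build GRCm38.p6, 5′ to 3′ on the gene's strand, and Cox6a2 is named only. The start in the Cox7a2 record lies within the annotated span of that gene (chr9:79755241-79771422) and not at its end. Capitals mark matches to an E-box (CAGCTG), a motif bound by myogenic regulators such as MyoD, or to a core of the site of NRF1 (CGCANGCG), a regulator of many respiratory chain genes.
Cox8b, chr7:140900447-140900616, minus strand: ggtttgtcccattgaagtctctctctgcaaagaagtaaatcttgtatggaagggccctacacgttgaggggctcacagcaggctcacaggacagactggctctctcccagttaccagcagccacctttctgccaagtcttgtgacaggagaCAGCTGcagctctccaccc
Cox8a, chr19:7217617-7217786, minus strand: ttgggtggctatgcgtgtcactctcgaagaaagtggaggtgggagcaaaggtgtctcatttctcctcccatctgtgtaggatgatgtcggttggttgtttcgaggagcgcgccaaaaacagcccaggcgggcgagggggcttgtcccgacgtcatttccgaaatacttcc
Cox7a1, chr7:30184001-30184170, plus strand: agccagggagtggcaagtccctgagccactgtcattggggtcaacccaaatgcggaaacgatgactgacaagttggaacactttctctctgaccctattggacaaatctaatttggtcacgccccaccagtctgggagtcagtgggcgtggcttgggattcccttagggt
Cox7a2, chr9:79759854-79760023, minus strand: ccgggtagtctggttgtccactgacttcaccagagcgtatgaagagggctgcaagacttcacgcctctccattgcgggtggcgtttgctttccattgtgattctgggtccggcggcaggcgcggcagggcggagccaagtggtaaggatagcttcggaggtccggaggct
Cox6a1, chr5:115348959-115349128, minus strand: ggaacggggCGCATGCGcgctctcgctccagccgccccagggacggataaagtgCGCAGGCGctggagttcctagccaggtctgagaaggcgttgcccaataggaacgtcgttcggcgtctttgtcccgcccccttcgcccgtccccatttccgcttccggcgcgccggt

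In these windows the muscle form Cox8b held 1 E-box and the general form Cox6a1 held NRF1 cores, while the muscle form Cox7a1 and the general forms Cox7a2 and Cox8a held neither motif. Of the 94 nuclear members, 76 matched a promoter record, and motifs were searched on both strands of the 250 bases before each start. The NRF1 core was found in 17 of 76 (22.4%), against 12.1% of the 13138 promoters of tested genes. CCGGAAG, a core of the ETS family to which GABP belongs, was found in 13 (17.1%, against 11.8%), and AAGGTCA, a site bound by the ERR receptors, in 5 (6.6%, against 3.0%). The E-box was found in 6 (7.9%, against 12.2%) and TATAAA in 6 (7.9%, against 8.1%). A match describes letters only.

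Ndufa4l2 was the only nuclear member that fell in all 4 groups. Its product resembles Ndufa4, a complex IV subunit once counted with complex I, and the gene is known to be induced by hypoxia. Ndufa4l2 had 43.1, 56.4 and 43.7 CPM in JAK1i, 50.1, 65.2 and 51.9 CPM in JAK3i, 87.2, 77.9 and 72.2 CPM in ruxolitinib and 59.6, 87.8 and 80.0 CPM in tofacitinib skin, against 143, 161 and 154 CPM in vehicle skin. No library overlapped the vehicle libraries, and JAK1i replicate 3 lay with its group. The log2 fold changes were -1.68 ± 0.13, -1.45 ± 0.13, -0.95 ± 0.13 and -1.01 ± 0.13 (SE), with edgeR adjusted p = 2.99e-09, 1.39e-08, 6.15e-06 and 2.35e-06. Ndufa4 itself rose by 0.95, 0.56, 0.40 and 0.52 on the log2 scale. Per kilobase, Ndufa4l2 made up 22.4%, 29.6%, 40.0% and 37.0% of the pair, against 62.9% in vehicle skin.

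Among the other complex IV genes, Cox4i1, the main form of subunit 4, rose by 0.78 and 0.72 in JAK1i and JAK3i skin and had 0.24 and 0.21 in ruxolitinib and tofacitinib skin, not called. Its alternative form Cox4i2, known from lung, had 1.01 to 3.24 CPM in these groups, against 1.47 to 2.38 CPM in vehicle skin, and was not called against vehicle skin. Without JAK1i replicate 3 it was called as lower in JAK1i skin (-0.82). Cox6b2, a form known from testis, rose in all 4 groups at a low level, at 3.41 to 5.80 CPM, against 2.24 to 2.99 CPM in vehicle skin, with log2 fold changes of 0.67, 0.95, 0.99 and 0.75. Cox7b rose by 0.79 and 0.43 in JAK1i and JAK3i skin. Cox7a2l, which takes part in joining complexes III and IV, was called in no group, with log2 fold changes of 0.04, 0.03, -0.04 and 0.07.

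Complex V had 15 of 16 tested nuclear members higher in JAK1i and 11 in JAK3i skin, but only Atp5s in ruxolitinib skin and Atp5s and Atp5c1 in tofacitinib skin. None fell. Atp5c1, the gamma subunit, had 543, 477 and 265 CPM in JAK1i, 300.2, 306 and 299 CPM in JAK3i, 242, 254 and 265 CPM in ruxolitinib and 322, 257 and 243 CPM in tofacitinib skin, against 195, 202 and 192 CPM in vehicle skin. No library overlapped the vehicle range, and the log2 fold changes were 1.12, 0.62, 0.37 and 0.48, of which the ruxolitinib value was not called (edgeR adjusted p = 0.0573). Atp5e, the epsilon subunit, rose by 1.27 and 0.63 in JAK1i and JAK3i skin and Atp5s, coupling factor B, by 0.82, 0.69, 0.43 and 0.48 in the 4 groups. Atp5g1, Atp5g2 and Atp5g3 encode the same mature ring subunit. Atp5g1 was called only in JAK1i skin (1.35 ± 0.26 SE), where replicate 3 had 15.7 CPM, within the vehicle range of 14.3 to 16.1 CPM. Atp5g2 and Atp5g3 rose by 0.78 and 0.63 in JAK1i and by 0.57 and 0.46 in JAK3i skin. In JAK1i replicate 3, Atp5g2 had 9.63 CPM, within the vehicle range of 8.76 to 12.3 CPM. Atp5g3 had 197 CPM there, below the vehicle range of 205.9 to 223.5 CPM. Atp5d, the delta subunit, rose by 0.32 in JAK1i skin and had -0.14, -0.13 and -0.13 in the other 3 groups. JAK1i replicate 3 had 88.8 CPM of Atp5d, below the vehicle range of 89.8 to 93.7 CPM.

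JAK2i skin gave no call: 0 of 91 nuclear and 0 of 13 mitochondrial members were called by edgeR or by DESeq2, where 0.0% of all genes rose and 0.0% fell, and 1 nuclear member had an unadjusted p below 0.05. The median log2 fold changes from vehicle were -0.03 and 0.00 for the nuclear and mitochondrial members, and the 95% intervals of the 13 mitochondrial genes lay between -0.42 and 0.68. Vehicle skin differed from pretreatment skin in no member either, again with 0.0% of all genes higher and 0.0% lower, with 1 nuclear and 0 mitochondrial members at an unadjusted p below 0.05 and 0 called by DESeq2. Its medians were 0.05 and 0.09, and its mitochondrial intervals lay between -0.48 and 0.45. These tests do not show that the members were unaffected.

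By the study's methods, JAK3i, tofacitinib and ruxolitinib were given at the same dose in mg/kg. In JAK3i compared with tofacitinib skin, 11 nuclear members were higher and 1 was lower, where 18.7% of all genes were higher and 20.7% lower, and ND6 alone of the mitochondrial members was higher (0.48 ± 0.15 SE, edgeR adjusted p = 0.0185). In JAK3i compared with ruxolitinib skin, 10 were higher and 1 lower, where 17.5% and 19.0% of all genes were, and ATP6, COX2, ND1, ND3 and ND6 were higher by 0.44 to 0.57 on the log2 scale. Cox4i1 was higher in JAK3i skin in both comparisons (0.51 over tofacitinib and 0.48 over ruxolitinib), as were Uqcrc1 (0.53 and 0.42), Atp5g3 (0.51 and 0.52) and Sdhc (0.46 and 0.42), while Ndufa4l2 was lower (-0.44 and -0.50). These counts rest on single libraries. Over tofacitinib, higher nuclear members numbered 49 without JAK1i replicate 3, where 22.8% of all genes were higher. They numbered 2 without JAK3i replicate 2 or without tofacitinib replicate 3. Over ruxolitinib they numbered 45 without JAK1i replicate 3, where 21.6% of all genes were higher, and 1 without JAK3i replicate 2. Higher mitochondrial members ran between 0 and 7 over tofacitinib and between 1 and 12 over ruxolitinib with 1 library left out in turn. Between tofacitinib and ruxolitinib skin no member was called, where 0.135% of all genes were higher and 0.236% lower. No member reached an unadjusted p below 0.05 or was called by DESeq2, and the intervals of the differences lay between -1.09 and 1.43 for nuclear and between -0.33 and 0.59 for mitochondrial members. All 13 mitochondrial estimates were higher in tofacitinib skin, by 0.05 to 0.24 on the log2 scale, and for 7 of the 13 every tofacitinib library lay above every ruxolitinib library (11.2% of all genes).

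By the study's methods the JAK1i and JAK3i doses differed, and these groups stand side by side with that limit. In JAK1i compared with JAK3i skin, 46 nuclear members were higher and 3 lower, where 21.9% of all genes were higher and 21.0% lower, and 12 mitochondrial members were higher. The lower members were Cox4i2 (-0.84), Cox6a1 (-0.72) and Cox8a (-0.61). Without JAK1i replicate 3, 78 nuclear members were higher, where 23.7% of all genes were. Without JAK1i replicate 1, 18 were, and in a fit of these groups alone none was. In the fit of these groups alone 2405 genes were called in either direction, against 3887 higher and 3730 lower in the main fit. Higher mitochondrial members numbered 4 without JAK1i replicate 1, 5 without JAK1i replicate 2, 6 without JAK3i replicate 3 and 0 in the fit of these groups alone.

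Genes that feed or build the chain were followed from lists. As background for these counts, 28.8%, 31.7%, 23.6% and 24.8% of all genes rose in JAK1i, JAK3i, ruxolitinib and tofacitinib skin. All 14 genes of the tricarboxylic acid cycle rose in JAK1i skin, 13 in JAK3i, 10 in ruxolitinib and 11 in tofacitinib skin, and none fell. Suclg2, a subunit of succinate-CoA ligase, averaged 29.9 ± 5.397 CPM in JAK1i, 26.2 ± 1.58 CPM in JAK3i, 21.7 ± 1.29 CPM in ruxolitinib and 25.7 ± 2.45 CPM in tofacitinib skin, against 12.5 ± 1.09 CPM in vehicle skin (SD, n = 3 each). It rose by 1.26, 1.07, 0.79 and 1.04 on the log2 scale. Of 14 genes of mitochondrial fatty acid oxidation, 13, 12, 12 and 11 rose and 1 fell in each group, which was Cpt1a, the form of carnitine palmitoyltransferase 1 that liver and most tissues use (-0.72, -0.68, -0.63 and -1.0). Its muscle form Cpt1b rose by 2.50, 1.68 and 0.93 in JAK1i, JAK3i and ruxolitinib skin, with 0.62 in tofacitinib skin not called, and Decr1, an enzyme for unsaturated fatty acids, rose by 1.62, 1.43, 1.25 and 1.36.

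Assembly factors of complexes II to IV rose in 24 of 28 in JAK1i, 18 in JAK3i, 12 in ruxolitinib and 13 in tofacitinib skin, with none lower, for example Uqcc1 of complex III by 1.32, 0.72, 0.60 and 0.67. Complex I assembly factors outside the Ndufaf genes rose in 6, 4, 4 and 4 of 8, with 1 lower in each of JAK1i and JAK3i skin, and those of complex V in 4, 3, 1 and 2 of 5. Fmc1, an assembly factor of complex V, rose by 1.86, 1.27, 0.99 and 0.80. Mobile electron carriers rose in 4, 3, 3 and 3 of 4, with cytochrome c (Cycs) called only in JAK1i skin (1.19).

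Regulators of mitochondrial biogenesis and of mitochondrial DNA expression went in both directions: 8, 4, 2 and 2 of 18 rose and 2, 4, 3 and 7 fell in JAK1i, JAK3i, ruxolitinib and tofacitinib skin. Of all genes 28.8%, 31.7%, 23.6% and 24.8% rose and 35.4%, 33.1%, 27.2% and 28.2% fell in that order. Outside JAK1i skin, the share of these regulators that rose lay below this background. Ppargc1a, which encodes the coactivator PGC-1alpha, averaged 27.5 ± 6.73 CPM in JAK1i, 24.7 ± 6.51 CPM in JAK3i, 11.6 ± 1.58 CPM in ruxolitinib and 13.3 ± 2.90 CPM in tofacitinib skin, against 5.07 ± 0.411 CPM in vehicle skin (SD, n = 3 each). It rose by 2.44, 2.28, 1.19 and 1.39 on the log2 scale, while its relative Ppargc1b fell by 1.02 in ruxolitinib and by 0.89 in tofacitinib skin. Slc25a4, the adenine nucleotide carrier of heart and muscle, rose by 2.86, 1.75, 1.40 and 1.28, and Ucp2, an inner membrane carrier common in immune cells, had log2 fold changes of -1.62, -1.23, -1.42 and -1.65. In glycolysis 11, 5, 5 and 5 of 18 genes rose and 6, 7, 9 and 8 fell, with medians of 0.65, -0.14, -0.47 and -0.37. Outside JAK1i skin the share that rose was near the background of 31.7%, 23.6% and 24.8% of all genes. The share that fell in ruxolitinib and tofacitinib skin lay above the background of 27.2% and 28.2%. The 3 glycolysis genes that changed most were the muscle forms Pgam2, Eno3 and Pfkm, at 3.69, 3.50 and 2.95 in JAK1i skin. T cell markers were lower in 10, 10, 9 and 10 of 10 and hair follicle matrix and shaft markers in 11, 10, 11 and 11 of 11 in the same groups. Of all genes 35.4%, 33.1%, 27.2% and 28.2% were lower in these groups.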

How the data were processed

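RNA came from skin of C3H/HeJ mice with AA. The authors deposited whole-number read counts per gene for 24 libraries; per the labels and the study's methods, Subread, mouse build mm10 (GRCm38) and DESeq2 1.18.1 were used. Handling of reads that map to several places and the strand setting are not given in the sources used here. A second deposited table holds the authors' normalized score values for 7 genes and was used only to match its columns to libraries; 6 of its 24 columns matched another library. Among the gene symbols, 26 had become dates and were restored by Entrez ID, and 855 genes with no symbol (at most 0.608% of counts) stayed in the fit. No column of values was left unmapped, and totals were 17311913 to 21858670 counts.

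Counts were fitted with edgeR 4.0.16 in R 4.3.3: filterByExpr by group (minimum count 10), TMM scaling (0.851 to 1.068), 7 group means over all 24 libraries and the quasi-likelihood test, with Benjamini-Hochberg adjustment over 17770 genes and calls below 0.05. The common biological coefficient of variation was 0.17. CPM values are TMM-scaled, with a prior count of 2 on the log2 scale. limma 3.58.1 was loaded with edgeR. The fit was tested on simulated data. The members, gene lists and markers were chosen with earlier results of these data known. Members named with values were all mitochondrial genes, Sdha to Sdhd, paired forms, and in each complex the 3 with the largest and 2 with the smallest mean absolute change over JAK1i, JAK3i, ruxolitinib and tofacitinib, plus members that fell against their complex, and up to 3 genes of each list, of which 1 is not reported here. Ndufs4 and Ndufv3 lie outside this rule and were named after their values were seen. Alternatives were DESeq2 1.42.0, RLE scaling, scaling without mitochondrial and muscle genes, no filter, a filter of 1 CPM in 3 libraries, fits of the compared groups alone, pretreatment in place of vehicle, the replicate number as a block, and each library left out in turn. Differences in the dose, and in the sequencer named by the labels and the methods, were not resolved.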

Additional observations from a re-analysis of the deposited data

Results flagged for a closer look

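Of 58 results tested for an outlying pretreatment library, 2 were picked out because the gap between the most extreme library and its neighbour was a large part of the whole range of the 6 libraries. The ratio was 0.839 for Cox6b1, a general complex IV subunit, whose pretreatment libraries ran between 109.6 and 122.0 CPM, and 0.734 for Uqcrh of complex III, whose libraries ran between 108.9 and 120.9 CPM; both ratios are above Dixon's critical value for 6 samples. Chance alone picks out about 1 group in 20, and both ranges are narrow beside the JAK1i changes of these genes.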

How the results depend on the processing

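Of 149 calls of named genes, 116 held under every alternative and 33 were lost under at least 1, and none of the 4916 alternative values changed sign. Among those lost were the ruxolitinib call of Ndufa4 (9 of 33 alternatives) and the JAK3i calls of Cox8a (9 of 33) and Cox7b (8 of 33). The JAK1i calls of Ndufa8 (6 of 33) and Sdhd (6 of 32) were others. The 13 mitochondrial members stayed called in JAK1i, JAK3i and tofacitinib skin under each alternative. DESeq2 moved no count by more than 1.5 times. In fits of the compared groups alone, 68 nuclear members rose and 2 fell in ruxolitinib skin and 61 rose in tofacitinib skin. Over all genes, 10901 and 9856 were called in either direction there. The main fit had 4200 higher and 4839 lower in ruxolitinib skin, and 4401 higher and 5006 lower in tofacitinib skin. Against pretreatment skin 46 and 48 nuclear members rose. For JAK3i compared with tofacitinib, higher nuclear members numbered 27 in the fit of those groups alone (0 lower, 3 mitochondrial), 6 with RLE scaling, 3 with no filter, 7 with the stricter filter and 6 with scaling without mitochondrial and muscle genes. For JAK3i compared with ruxolitinib they numbered 45 (12 mitochondrial), 5, 4, 5 and 5 in that order, and mitochondrial members 2 in each of the last 4. Over all genes, the fits of those groups alone called 6266 for tofacitinib and 7409 for ruxolitinib in either direction. The main fit had 3318 higher and 3672 lower over tofacitinib, and 3106 higher and 3382 lower over ruxolitinib. For JAK1i compared with JAK3i, 0 nuclear and 0 mitochondrial members were higher in the fit of those groups alone. Their median log2 fold changes were 0.43 and 0.5 there, against 0.43 and 0.51 in the main fit. Calls over all genes numbered 2405 there, against 3887 higher and 3730 lower in the main fit. The cause of these changes was not tested. Leaving out 1 library gave 46 to 80 higher nuclear members in JAK3i, 15 to 64 in ruxolitinib and 9 to 61 in tofacitinib skin (1 to 2 lower), 18 to 78 (mitochondrial 4 to 13) for JAK1i compared with JAK3i, 2 to 49 (0 to 2 lower, mitochondrial 0 to 7) for JAK3i compared with tofacitinib and 1 to 45 (mitochondrial 1 to 12) for JAK3i compared with ruxolitinib.

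Libraries with the same replicate number did not pair: over 45 pairs the correlations of their deviations ran between -0.173 and 0.29 (median -0.01), with 3 above 0.1. With the replicate number as a block over the libraries after treatment, higher nuclear members numbered 80 in JAK1i, 54 in JAK3i, 17 in ruxolitinib and 20 in tofacitinib skin, 28 (mitochondrial 4) for JAK1i compared with JAK3i, 6 for JAK3i compared with tofacitinib and 5 (mitochondrial 1) for JAK3i compared with ruxolitinib. Without the block on the same libraries, the last 3 comparisons gave 6 mitochondrial, 5 nuclear and 5 nuclear (mitochondrial 1) members. Sdhd had 3 to 28 counts in any library, so depth limits its values.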

Other observations

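The 2 ribosomal RNAs of the mitochondrial genome, which are no members, had smaller log2 fold changes than its protein-coding genes. mt-Rnr1 averaged 487 ± 70.7 CPM in JAK1i, 306 ± 26.5 CPM in JAK3i, 378 ± 10.98 CPM in ruxolitinib and 395 ± 57.9 CPM in tofacitinib skin, against 342 ± 36.5 CPM in vehicle skin (SD, n = 3 each), with log2 fold changes of 0.51, -0.16, 0.15 and 0.21, of which edgeR called only the JAK1i value. mt-Rnr2 had 0.95, 0.45, 0.25 and 0.38, of which the ruxolitinib value was not called. The lowest protein-coding value in each group was 1.35, 0.82, 0.45 and 0.56, and the difference between the 2 kinds of gene was not tested.

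Proteins of the mitochondrial ribosome translate the 13 mitochondrial members. Of 77 tested Mrpl and Mrps genes, 56 rose in JAK1i, 31 in JAK3i, 9 in ruxolitinib and 16 in tofacitinib skin, and 0, 0, 2 and 2 fell, with median log2 fold changes of 0.42, 0.22, 0.12 and 0.13. Of all genes 28.8%, 31.7%, 23.6% and 24.8% rose in that order, so the shares that rose lay above this background in JAK1i skin and, by less, in JAK3i skin, and below it in ruxolitinib and tofacitinib skin. Mrps6 rose by 0.89, 1.25, 1.02 and 0.91, and Mrpl42 rose by 1.29, 0.43, 0.44 and 0.55.

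Macrophage markers differed in direction between groups. In JAK1i skin 8 of 8 were lower, where 35.4% of all genes were lower, and in JAK3i skin 6 of 8 were higher, where 31.7% were higher. The part of macrophage RNA in the changes of the members was not tested.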
